A study of Homo sapiens with 9 samples.

Results

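Ribosome biogenesis factors are the proteins that process and modify ribosomal RNA and assemble it with ribosomal proteins, without staying in the finished ribosome. A set of 59 such genes was taken by gene symbol from the 58735 genes in the deposited count table. All 59 symbols were found once. RNA was sequenced from MIA PaCa-2, an established human pancreatic cancer cell line, labelled wild type for genotype and treated for 24 h. In 3 libraries the cells received 0.1% DMSO as the vehicle, in 3 they received 1 μM compound 1, an inhibitor of TBK1 and IKKε, and in 3 they received 1 μM SCH772984, an inhibitor of ERK1/2. All 9 libraries came from 1 cell line, and no source used here says that replicates were separate cultures, so p-values measure the spread between these samples, which may be technical.

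Ribosomes are made mainly in the nucleolus, where RNA polymerase I transcribes a long precursor of the ribosomal RNAs. Small nucleolar RNPs (snoRNPs) carry guide RNAs to the sites that are methylated or pseudouridylated, the small subunit processome folds and cleaves the 5′ part of the precursor, and a separate series of particles assembles the large subunit. The last steps of small subunit maturation run into the cytoplasm, where the final cut of 18S rRNA is made. Growth signals that pass through ERK are known to promote several of these steps. The members were sorted by hand into 8 snoRNP factors, 21 factors of the small subunit processome, 20 of large subunit assembly, 6 of late small subunit maturation and 4 multifunctional nucleolar proteins.

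Promoter sequences are shown first, because a feature that the choice by symbol did not use was more frequent in the members' windows than in those of all tested genes. RefSeq promoter windows on GRCh38, from 250 bases before to 50 bases after the transcription start, were at hand for 51 of the 59 members. The E-box CACGTG, a palindrome that basic helix-loop-helix zipper proteins such as MYC with MAX can bind, was present in a window of 25 of these 51 members and absent from those of the other 26. That was 49.0% of them, beside 30.8% of 78 other ribosome biogenesis factors, 12.8% of the 9810 genes tested with SCH772984 that had a window, and 8.77% of all 27305 genes with a window. Most of these E-boxes lay close to the start. An E-box began within 50 bases of the start in 24 of 51 members (47.1%), compared with 21.8% of the other factors and 5.34% of the tested genes. The 50-base limit was chosen after the positions had been seen. Of the 29 E-boxes in member windows, 18 began at or after the start, and the median began 4 bases after it. Those of 10 members are printed 5′ to 3′ on the strand of the gene, with the E-box in capitals and up to 12 bases on either side. FBL, RRP9, WDR43, PNO1, DDX21 and MYBBP1A are among the members described by library further on, and NOL6, NAT10, PWP2 and again MYBBP1A are described for compound 1.
FBL, chr19:39846356-39846385, minus strand: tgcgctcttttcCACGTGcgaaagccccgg
RRP9, chr3:51941892-51941921, minus strand: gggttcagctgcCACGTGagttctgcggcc
WDR43, chr2:28894658-28894687, plus strand: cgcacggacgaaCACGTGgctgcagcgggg
PNO1, chr2:68157885-68157914, plus strand: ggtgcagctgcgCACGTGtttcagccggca
DDX21, chr10:68956604-68956633, plus strand: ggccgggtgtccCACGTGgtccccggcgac
MYBBP1A, chr17:4555340-4555369, minus strand: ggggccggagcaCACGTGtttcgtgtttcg
NOL6, chr9:33473894-33473923, minus strand: ggcatttccgccCACGTGggaagctatgag
NAT10, chr11:34105602-34105631, plus strand: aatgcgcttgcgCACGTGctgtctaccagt
PWP2, chr21:44107388-44107417, plus strand: tgagctgcggcaCACGTGcgacggccgtga
NOP2, chr12:6568242-6568268, minus strand: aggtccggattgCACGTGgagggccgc
NOP2 is included because it was the member not called lower with SCH772984, and the bases after its E-box end where the window ends. Among tested genes with a window, 14.0% of those lower with SCH772984, 12.1% of those higher and 12.2% of those not called held an E-box. A match in these letters is a description of the window and not a measurement of binding.

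The core CCGGAAG, which ETS family proteins can bind and which was searched on both strands, was in the windows of 21 of the 51 members (41.2%). It was in 44.9% of the other ribosome biogenesis factors, in 22.9% of the tested genes, in 28.6% of the tested genes that were lower with SCH772984 and in 15.8% of those that were higher. The GC box GGGCGG was in 76.5% of member windows, in those of 46 of the 78 other factors and in 78.2% of those of tested genes. The CCAAT box CCAAT was in 47.1% of members, 35.9% of other factors and 42.9% of tested genes, and the TATA box TATAAA in 5.88%, 5.13% and 7.60%. None of these motifs holds another within it. The 80 bases before the start of EMG1, the member that fell most with SCH772984, and of WDR3 each held the ETS core on both strands, shown in capitals, and neither window held an E-box.
EMG1, chr12:6970833-6970912, plus strand: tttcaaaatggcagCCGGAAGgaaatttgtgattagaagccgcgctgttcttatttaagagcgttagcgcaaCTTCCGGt
WDR3, chr1:117929659-117929738, plus strand: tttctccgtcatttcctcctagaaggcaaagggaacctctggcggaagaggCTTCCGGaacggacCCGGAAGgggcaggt

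**Figure D1:**
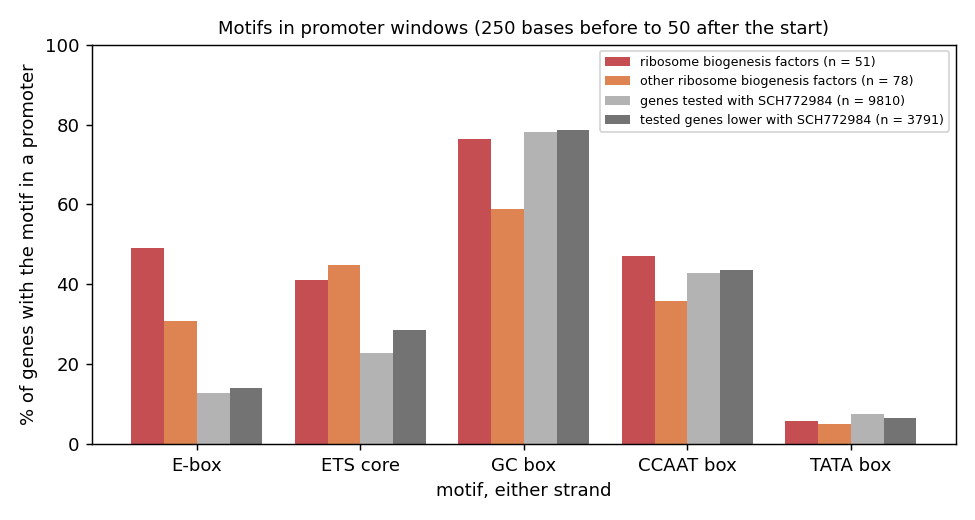
Share of genes (y axis, %) whose RefSeq promoter window held each of 5 motifs on either strand (x axis), for the 51 ribosome biogenesis factors with a window, 78 other factors, 9810 tested genes and the 3791 of these that were lower with SCH772984. The E-box bar of the ribosome biogenesis factors stands at 49.0%, against 12.8% for the tested genes, while their GC box, CCAAT box and TATA box bars differ by less, and the GC box bar of the other factors is lower, at 46 of 78.

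The libraries held 9464432 to 10286223 counts with DMSO, 9652741 to 9840769 with compound 1 and 11056977 to 13887859 with SCH772984. Of 9 genes listed as epithelial and ductal markers, KRT8, KRT18 and KRT19 had at least 1840 counts in every library, as did VIM, which marks mesenchymal cells, whereas EPCAM was at 0 and CDH1 and KRT7 had at most 5 counts. The summed level of this list was 6004 to 6381 counts per 1000000 counts (CPM, after TMM scaling) with DMSO, 5578 to 6753 with compound 1 and 3310 to 3601 with SCH772984. Of its 6 tested genes, 4 were lower with SCH772984 on the log2 scale, namely KRT18 (−2.40), KRT8 (−1.69), SOX9 (−1.18) and VIM (−0.23), and MUC1 was higher (2.77). The summed level of 8 acinar markers was 0 to 0.169 CPM. That of 5 leukocyte markers was 3.18 to 4.38 CPM with DMSO, 2.18 to 3.44 with compound 1 and 0.844 to 1.68 with SCH772984. Among them PTPRC and CD3E were at 0, LYZ had at most 13 counts, and CD14, with 23 to 28 counts in the DMSO libraries, was lower with SCH772984 (−1.29, adjusted p = 0.000955 in edgeR's test). The summed level of 5 fibroblast markers was 458 to 507 CPM with DMSO, 469 to 532 with compound 1 and 994 to 1123 with SCH772984, with COL1A1, COL1A2 and PDGFRB higher with SCH772984 and nearly all counts from COL1A2. The part of these marker differences in the results for the members was not tested. Of 13 tested MAPK output genes, 12 were lower with SCH772984 and EPHA4 was higher (median −3.58), and 0 were called with compound 1. Over all tested genes, 35.5% were called lower and 37.2% higher with SCH772984, and 0.374% and 0.490% with compound 1. Compound 1 replicate 1 stood apart from the other libraries of its group. Its counts differed from theirs by a chi-square of 10.1 and 7.61 per degree of freedom across genes, compared with 2.66 between the other pair. The SCH772984 pairs were at 4.03, 6.40 and 4.94, and the DMSO pairs at 2.34, 3.15 and 2.38. Among the members alone, SCH772984 replicates 1 and 3 differed most, by a median of 0.171 on the log2 scale. Compound 1 replicates 1 and 2 differed by 0.162. Results for compound 1 are also given without its replicate 1.

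In the DMSO libraries, the members together held 13072 ± 178 CPM (SD, n = 3), here taken over each library's total count without TMM scaling. With compound 1 they held 12652 ± 295 (SD, n = 3), and with SCH772984 6093 ± 289 (SD, n = 3). These sums are shares of each library's RNA, in which fewer cells of a type with much of this RNA and less of it per cell cannot be told apart, and a change in the total RNA per cell would not show. Levels between genes were compared per length, in TPM (counts per kilobase of exon, scaled to one fixed sum per library). NPM1, a histone and ribosomal protein chaperone of the nucleolus, was the highest member with 2453 ± 42.4 TPM in DMSO (SD, n = 3), followed by NCL at 986 ± 16.5 TPM and EBNA1BP2 at 573 ± 21.4 TPM. FBL (409 ± 22.6 TPM), NOLC1 (377 ± 14.1 TPM), DDX21 (364 ± 12.3 TPM), DKC1 (355 ± 7.80 TPM) and BOP1 (332 ± 26.4 TPM) came next, and neighbours from NOLC1 to DKC1 lay within about their SDs of each other. The lowest members were PPAN (21.2 ± 0.59 TPM), PWP2 (21.1 ± 4.05 TPM) and NOP2 (1.25 ± 0.44 TPM).

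The comparison of SCH772984 with DMSO asked how the RNA of these factors stood after ERK inhibition. Of the 59 members, 58 were lower with SCH772984 and 0 were higher, with the fold changes spread over every step of the pathway. A gene was called where edgeR's quasi-likelihood test gave an adjusted p (Benjamini-Hochberg) below 0.05 over the 13834 genes tested, of which 35.5% were called lower and 37.2% higher. The median log2 fold change of the members was −1.26, or 2.40-fold lower, against 0.03 for all tested genes. At least 2-fold lower were 44 members, or 74.6%, compared with 10.6% of all tested genes. In 58 members all 3 SCH772984 libraries lay below all 3 DMSO libraries, as they did for 36.3% of tested genes. Adjusted p-values of the 58 members in edgeR's test ran from 1.17e-28 for EBNA1BP2 to 5.15e-08 for PPAN. Ranked by fold change among all tested genes, these 58 lay between percentiles 1.11 and 22.9, with a median percentile of 6.55 over all 59. Scaling to library size alone raised the median of all genes by 0.17 and put the members' median at −1.09, with the same number of members called.

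**Figure D2:**
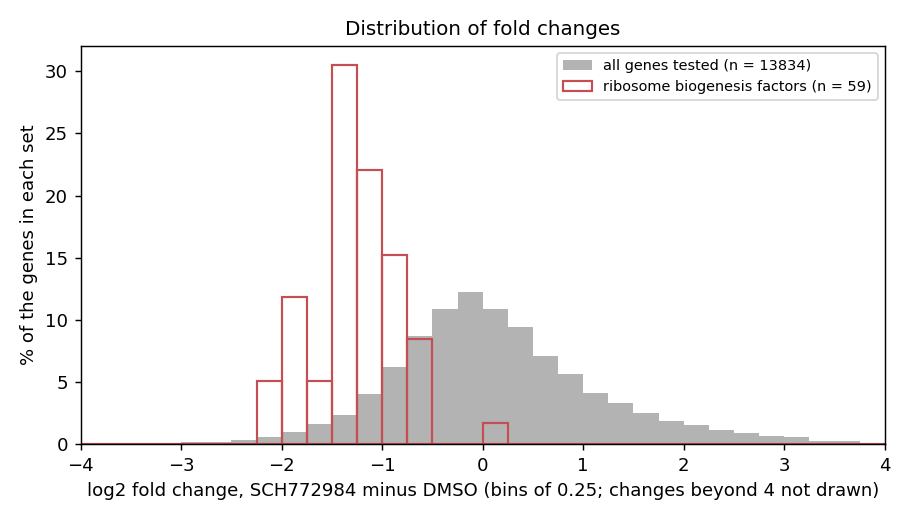
Distribution of log2 fold changes with SCH772984 against DMSO (x axis, bins of 0.25) as a percentage of the genes in each set (y axis), for 13834 tested genes (grey) and the 59 ribosome biogenesis factors (red outline). The members' median is −1.26 and their range is −2.23 to 0.07, whereas the tested genes centre near 0.03.

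All 8 snoRNP factors were lower with SCH772984, with a median log2 fold change of −1.47. Box C/D snoRNPs guide methylation of ribose in rRNA, and the 3 of their core proteins among the members fell by closely similar amounts. The set of members was not chosen to hold the whole box C/D core. FBL, the methyltransferase, was at 244, 257 and 269.8 CPM with DMSO, 258, 215 and 244 CPM with compound 1 and 96.6, 96.1 and 100.3 CPM with SCH772984. All SCH772984 libraries of FBL lay far below the DMSO libraries. The log2 fold change of FBL was −1.40 ± 0.065 (SE), that of the scaffold protein NOP56 was −1.44 ± 0.063 and that of its paralog NOP58 was −1.50 ± 0.07. Box H/ACA snoRNPs guide pseudouridylation, and the 4 proteins of their core did not move by the same amount. DKC1, the pseudouridine synthase, was at 435, 424 and 437 CPM with DMSO, 393, 403 and 413 CPM with compound 1 and 122, 112 and 101 CPM with SCH772984, and its log2 fold change was −1.96 ± 0.066. GAR1, another core protein of these particles, changed by −1.55 ± 0.13. NHP2, an RNA-binding core protein, was at 94.6, 102 and 92.7 CPM with DMSO, 102, 92.5 and 93.9 CPM with compound 1 and 69.2, 53.8 and 58.8 CPM with SCH772984. Its log2 fold change of −0.68 ± 0.08 was the smallest among the snoRNP factors, next to −0.73 ± 0.098 for NOP10. The 4 box H/ACA core proteins thus spanned −1.96 to −0.68. The 3 box C/D core proteins among the members spanned −1.50 to −1.40. No test between complexes was run. NOLC1, a chaperone of snoRNPs in the nucleolus and Cajal bodies, was at 422, 454 and 424 CPM with DMSO, 374, 389 and 397 CPM with compound 1 and 134, 126 and 114 CPM with SCH772984. It fell by 1.80 ± 0.066 on the log2 scale, and its compound 1 libraries lay below all DMSO libraries by a much smaller margin.

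All 21 factors of the small subunit processome were lower with SCH772984, with a median log2 fold change of −1.22 and a range of −2.23 to −0.78. EMG1, a pseudouridine methyltransferase of 18S rRNA (ENSG00000126749, chr12:6970893-6997428, plus strand on GRCh38), was at 114, 119 and 102 CPM with DMSO, 122, 101 and 112 CPM with compound 1 and 23.8, 24.8 and 22.96 CPM with SCH772984. With −2.23 ± 0.083 it had the largest fall of all 59 members, and its SCH772984 level was 21.3% of the DMSO level. Because 53.1% of its exon bases also belong to other genes, mostly on the opposite strand, and no source used here gives the strand setting, part of its counts could belong to those genes. RRP9, which binds the U3 snoRNA, was at 112, 109 and 106 CPM with DMSO, 101, 85.4 and 93.95 CPM with compound 1 and 27.2, 28.5 and 27.4 CPM with SCH772984. RRP9 changed by −1.98 ± 0.079, and the groups SCH772984 and DMSO were far apart. WDR43, a subunit of the UTP-A complex that binds the start of the precursor, was at 201, 202 and 197 CPM with DMSO, 166, 206 and 200.1 CPM with compound 1 and 74.7, 76.3 and 65.9 CPM with SCH772984, with a log2 fold change of −1.47 ± 0.069. WDR75, also in UTP-A, was at 137, 141 and 135 CPM with DMSO, 134, 162 and 156 CPM with compound 1 and 81.1, 89.97 and 70.9 CPM with SCH772984. Its change of −0.78 ± 0.074 was the smallest in the processome, and the 3 other UTP-A members lay in between, with −1.46 for UTP4, −1.03 for UTP15 and −0.94 for HEATR1.

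The 5 members of UTP-B, a complex that joins the processome after UTP-A, lay in a narrower range. Their log2 fold changes were −1.28 for PWP2, −1.22 for WDR3, −1.09 for TBL3, −0.97 for WDR36 and −0.91 for UTP18. In the complex of MPP10, IMP3 changed by −1.92 ± 0.15, IMP4 by −1.18 ± 0.073 and MPHOSPH10 by −0.97 ± 0.09. IMP3 shares 59.3% of its exon bases with genes on the opposite strand. NOL6 changed by −1.51, the large scaffold UTP20 by −1.34, UTP14A, which activates the helicase DHX37, by −1.31, the DEAD-box protein DDX10 by −1.22 and NOP14 by −1.02. NAT10, the acetyltransferase that modifies cytidines in 18S rRNA, stood at 49.9% of its DMSO level.

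**Figure D3:**
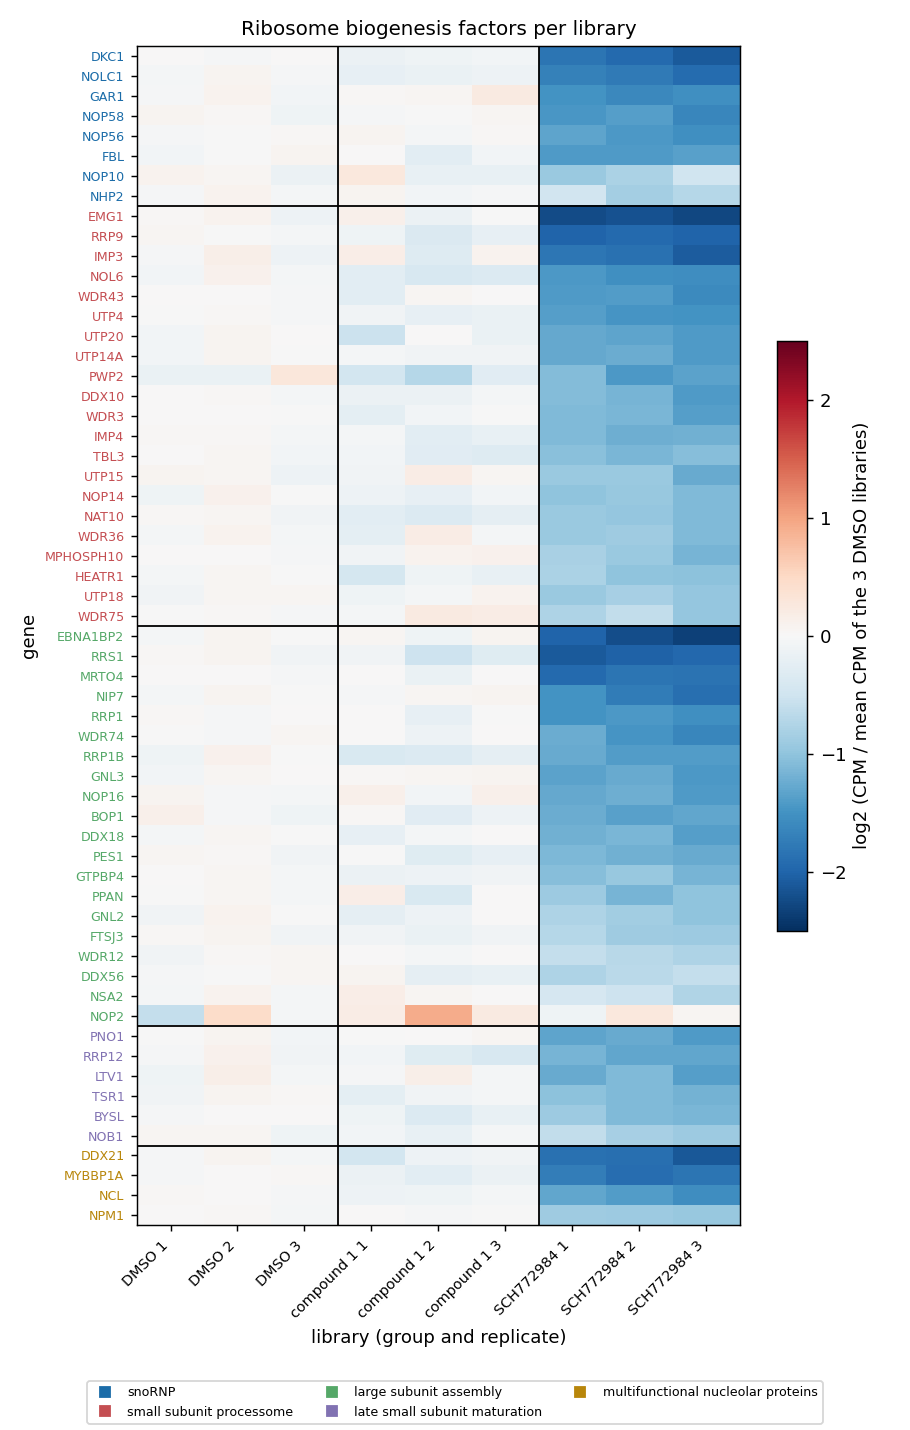
Level of each of 59 ribosome biogenesis factors (rows, sorted by step and by fold change with SCH772984) in each of 9 libraries (columns), as log2 of CPM over the mean CPM of the 3 DMSO libraries. The SCH772984 columns are blue, that is lower, in all rows apart from NOP2, and the compound 1 columns are pale.

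Of the 20 large subunit factors, 19 were lower with SCH772984, with a median log2 fold change of −1.28 over all 20. EBNA1BP2, which acts in early assembly of the 60S subunit (ENSG00000117395, chr1:43164175-43270936, minus strand on GRCh38), was at 568, 614 and 587 CPM with DMSO, 609, 545 and 619 CPM with compound 1 and 147, 128 and 117 CPM with SCH772984. Its log2 fold change of −2.18 ± 0.069 was the second largest fall among the members, at one of their highest levels in DMSO. RRS1, which helps to bring the 5S RNP into the large subunit, was at 44.3, 45.9 and 40.8 CPM with DMSO, 41.01, 30.4 and 35.2 CPM with compound 1 and 10.1, 10.7 and 11.1 CPM with SCH772984. It changed by −2.04 ± 0.11, to 24.4% of its DMSO level. MRTO4, which holds the place of the stalk protein P0 on the precursor, changed by −1.88 ± 0.073, and NIP7 by −1.72 ± 0.087. BOP1, the centre of the PeBoW complex that is needed for processing of 28S and 5.8S rRNA, was at 389, 350.5 and 332 CPM with DMSO, 363, 294 and 326 CPM with compound 1 and 150.3, 139 and 145 CPM with SCH772984. It changed by −1.31 ± 0.065, its partner PES1 by −1.20 ± 0.067 and the third partner, WDR12, by −0.70 ± 0.076. The nucleolar GTPases also differed in amount, with −1.35 for GNL3, −1.07 for GTPBP4 and −0.89 for GNL2. The remaining factors ranged from −1.49 for RRP1, −1.46 for WDR74, −1.35 for RRP1B, −1.32 for NOP16 and −1.25 for DDX18 to −1.02 for PPAN, −0.84 for the methyltransferase FTSJ3, −0.68 for DDX56 and −0.56 for NSA2. NSA2 shares 58.7% of its exon bases with genes on the opposite strand.

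NOP2, a methyltransferase of cytidines in 28S rRNA (ENSG00000111641, chr12:6556863-6568691, minus strand on GRCh38), was the one member not called with SCH772984. It had 11, 21 and 15 counts in the DMSO libraries, 18, 31 and 19 with compound 1 and 19, 24 and 26 with SCH772984. These are far fewer counts than any other member had, and the groups overlapped. Its log2 fold change with SCH772984 was 0.07 ± 0.35, with a 95% interval of −0.64 to 0.78 and an adjusted p of 0.861 in edgeR's test, so a fall as large as that of the median member lies outside the interval. In the annotation that the count table follows, 54.4% of the exon bases of NOP2 are shared on the same strand with AC006064.6, which had 0 counts in all 9 libraries. PPAN shares 59.8% of its exon bases on the same strand, chiefly with the read-through gene PPAN-P2RY11, which had 0 counts as well. The counts of both members are therefore uncertain, and how the counting tool treated reads on shared bases is not given in the sources used here. Some exon bases were shared with another gene in 37 members, and most of them in 5, namely PPAN, IMP3, NSA2, NOP2 and EMG1.

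All 6 factors of late small subunit maturation were lower with SCH772984, with a median of −1.18. PNO1, which guards the 3′ end of 18S rRNA until the last cut, was at 83.97, 88.8 and 80.1 CPM with DMSO, 83.96, 84.99 and 86.99 CPM with compound 1 and 33.7, 35.03 and 31.5 CPM with SCH772984. It changed by −1.34 ± 0.081, with all SCH772984 libraries below the others. NOB1, the endonuclease that makes this cut, was at 97.6, 97.4 and 88.01 CPM with DMSO, 89.99, 83.4 and 91.4 CPM with compound 1 and 61.7, 52.9 and 50.5 CPM with SCH772984. It changed by −0.79 ± 0.079, the smallest change in this step, and its SCH772984 libraries still lay below all DMSO libraries. RRP12, which is needed for export of the pre-40S particle, was at 138, 152 and 132 CPM with DMSO, 134, 113 and 107 CPM with compound 1 and 62.6, 57.1 and 56.9 CPM with SCH772984. RRP12 changed by −1.26 ± 0.073, LTV1 by −1.25 ± 0.11, TSR1, a GTPase-like factor on the subunit interface, by −1.11 ± 0.071 and BYSL by −1.05 ± 0.086.

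The multifunctional nucleolar proteins had a median of −1.62. NPM1 was at 2739, 2765 and 2643 CPM with DMSO, 2735, 2658 and 2707 CPM with compound 1 and 1465, 1449 and 1409 CPM with SCH772984. Its log2 fold change of −0.92 ± 0.058 was the smallest of the 4. Named pseudogenes of NPM1 numbered 45 in the table and together held counts equal to 2.76% of its own. NCL, nucleolin, was at 2005, 1996 and 1925 CPM with DMSO, 1821, 1830.5 and 1908 CPM with compound 1 and 801, 749 and 674 CPM with SCH772984, and it changed by −1.42 ± 0.062. DDX21, an RNA helicase that works on rRNA and on RNA polymerase I and II genes, was at 519, 552 and 514 CPM with DMSO, 384, 484 and 499.7 CPM with compound 1 and 145, 143 and 122 CPM with SCH772984. Its change was −1.96 ± 0.067, to 25.8% of the DMSO level, with no overlap between these groups. MYBBP1A, a nucleolar protein that binds MYB and takes part in rRNA processing, was at 359.7, 367 and 373 CPM with DMSO, 332, 304 and 329 CPM with compound 1 and 111, 97.8 and 104 CPM with SCH772984. It changed by −1.82 ± 0.065 with SCH772984.

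**Figure D4:**
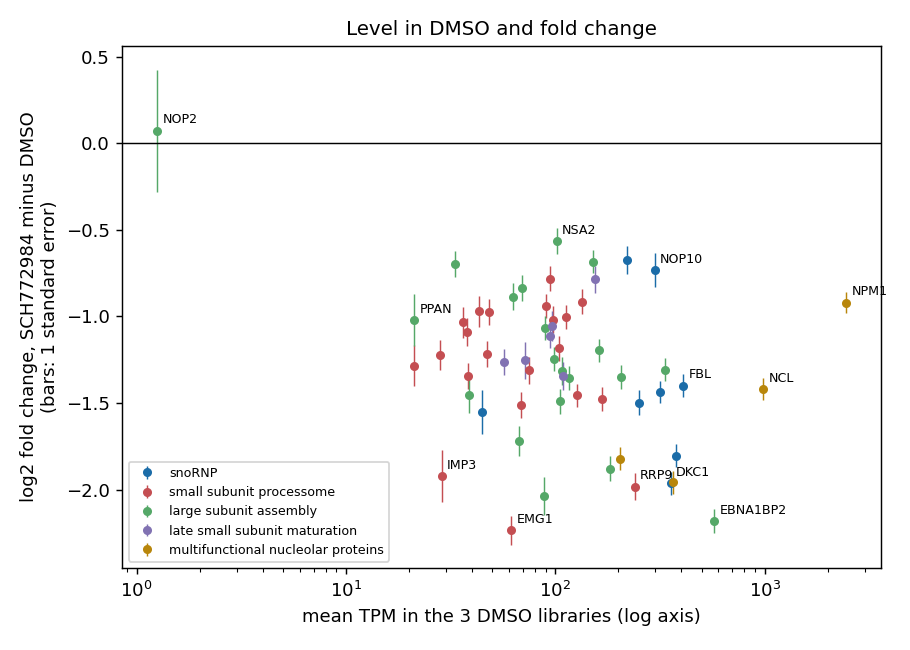
The log2 fold change with SCH772984 against DMSO (y axis, bars 1 SE) over the mean level in the 3 DMSO libraries (x axis, TPM, log axis) for the 59 ribosome biogenesis factors, coloured by step. Falls of more than 1 occur from the lower levels up to NCL at 986 TPM, and NOP2 stands alone at 1.25 TPM with a wide bar.

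The size of the fall was only loosely tied to the level of a member. The level in DMSO, as log2 of TPM, was set against the log2 fold change with SCH772984 across the 59 genes, which are not independent replicates and share libraries. As a description, r was −0.36 (Pearson) and rho was −0.24 (Spearman). Both include NOP2, which stood alone at the lowest level with few counts, and neither was computed without it. For log2 gene length and the fold change, r was 0.06. The 25 members with an E-box had a median log2 fold change of −1.34 with SCH772984, the 26 members with a window and no E-box had −1.08, and the 8 without a window had −1.33. The ranges of the first 2 sets overlapped widely, from −2.18 to 0.07 and from −2.23 to −0.56.

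Other genes of the pathway were looked at in lists chosen by function. As background for each list, 35.5% of the 13834 genes tested with SCH772984 were called lower and 37.2% higher, with a median of 0.03. Of 93 other ribosome biogenesis factors tested, 88 were lower with SCH772984 and 2 were higher, with a median log2 fold change of −0.87. LYAR, a nucleolar protein of cell growth, changed by −2.28, and TCOF1, the treacle protein that supports rRNA transcription, by −2.22. The 2 that were higher were DDX47, a helicase, at 1.01 ± 0.27 (SE), and RIOK3, a kinase of late small subunit maturation, at 0.40. The value of DDX47 rests on few counts, with 24, 17 and 20 in the DMSO libraries and 54, 59 and 57 with SCH772984. The RNA exosome, which trims rRNA precursors from the 3′ end, had all 14 of its tested genes lower, with a median of −0.86 and EXOSC4 lowest at −3.32. Of 15 genes of RNA polymerase I and its factors, 12 were lower and 1, TAF1C, was higher at 0.47, with a median of −0.81. Small nucleolar RNAs that lie inside members could not be followed, since 21 of 27 such genes in 8 members had at most 3 counts in every library and none exceeded 15 counts.

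The comparison of compound 1 with DMSO asked the same of TBK1 and IKKε inhibition. None of the 59 members was called lower or higher by edgeR's test after adjustment over 12849 genes, of which 0.374% were called lower and 0.490% higher. At an unadjusted p under 0.05, 14 members were lower (23.7%) and 0 were higher, compared with 7.69% and 7.35% of all tested genes. DESeq2 called 3 members lower, NOL6, RRP1B and NAT10, and 1.12% of the 10606 genes to which it gave an adjusted p. The log2 fold change was below 0 in 45 members (76.3%), against 49.5% of tested genes, with a median of −0.09. In 14 members all 3 compound 1 libraries lay below all 3 DMSO libraries, and in 0 they lay above them, compared with 10.6% and 10.3% of tested genes. The 95% interval of the log2 fold change stayed above −0.5 in 57 members, the exceptions being PWP2 and RRS1, and its upper end was at most 0.33, for GAR1, in all but NOP2.

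The 5 members with the smallest p-values had log2 fold changes of −0.47 to −0.19. NOL6, a structural protein of the processome, was at 112, 127 and 113 CPM with DMSO, 97.2, 88.8 and 92.9 CPM with compound 1 and 43.2, 40.7 and 39.9 CPM with SCH772984. All compound 1 libraries lay between the other groups, with a log2 fold change of −0.33 ± 0.079 (SE), a 95% interval of −0.50 to −0.16 and an adjusted p of 0.0652 in edgeR's test. RRP1B, a nucleolar protein that binds a protein phosphatase, was at 181, 209.9 and 193 CPM with DMSO, 150.1, 154 and 166 CPM with compound 1 and 81.3, 73.4 and 74.4 CPM with SCH772984. Its log2 fold change with compound 1 was −0.31 ± 0.076 (edgeR adjusted p = 0.0692). NAT10 was at 173, 177 and 161 CPM with DMSO, 142, 134 and 146 CPM with compound 1 and 89.9, 87.6 and 78.7 CPM with SCH772984. Its value was −0.27 ± 0.071 on the log2 scale (edgeR adjusted p = 0.0828), again with no overlap with DMSO. PWP2 was at 37.7, 37.7 and 51.2 CPM with DMSO, 30.9, 25.8 and 34.8 CPM with compound 1 and 19.95, 15.6 and 16.6 CPM with SCH772984. The log2 fold change of PWP2 was −0.47 ± 0.14 (edgeR adjusted p = 0.117), and the DMSO libraries differed among themselves by more than for the other genes named. MYBBP1A, whose values are given above, had a log2 fold change of −0.19 ± 0.063 with compound 1 (edgeR adjusted p = 0.17).

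By step, the median log2 fold changes with compound 1 were −0.01 for snoRNP factors, −0.11 for the small subunit processome, −0.06 for large subunit assembly, −0.11 for late small subunit maturation and −0.14 for the multifunctional proteins. At an unadjusted p under 0.05, where 7.69% of all tested genes were lower, the 14 members that were lower comprised 7 of the 21 processome factors, 1 of 8 snoRNP factors, 2 of 20 large subunit factors, 2 of 6 late factors and 2 of 4 multifunctional proteins. Differences between the steps were not tested. NPM1, at −0.01 with an interval of −0.12 to 0.11, and EBNA1BP2, with an interval of −0.13 to 0.15, bound the change most tightly around 0 among the highest members. Of the other 93 factors, 1 was lower with compound 1, TCOF1 at −0.30 with an adjusted p of 0.0376 in edgeR's test. Over all tested genes, 0.374% were called lower with compound 1.

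Without compound 1 replicate 1, the library that stood apart, more members passed the test. Then 14 members were lower and 1 was higher, at a background of 6.10% and 3.46% of 13084 tested genes, and the members' median was −0.07, with 44 below 0. The 14 were UTP4, TBL3, NOL6, RRP9, IMP4 and NAT10 of the processome, PES1, BOP1, RRS1, RRP1B and DDX56 of large subunit assembly, BYSL and RRP12 of the late steps, and MYBBP1A. The member that was higher was WDR75, at 0.21. These 15 are named after their values were seen. PWP2 was not called in that fit, and whether the replicate differs for a technical reason was not tested.

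**Figure D5:**
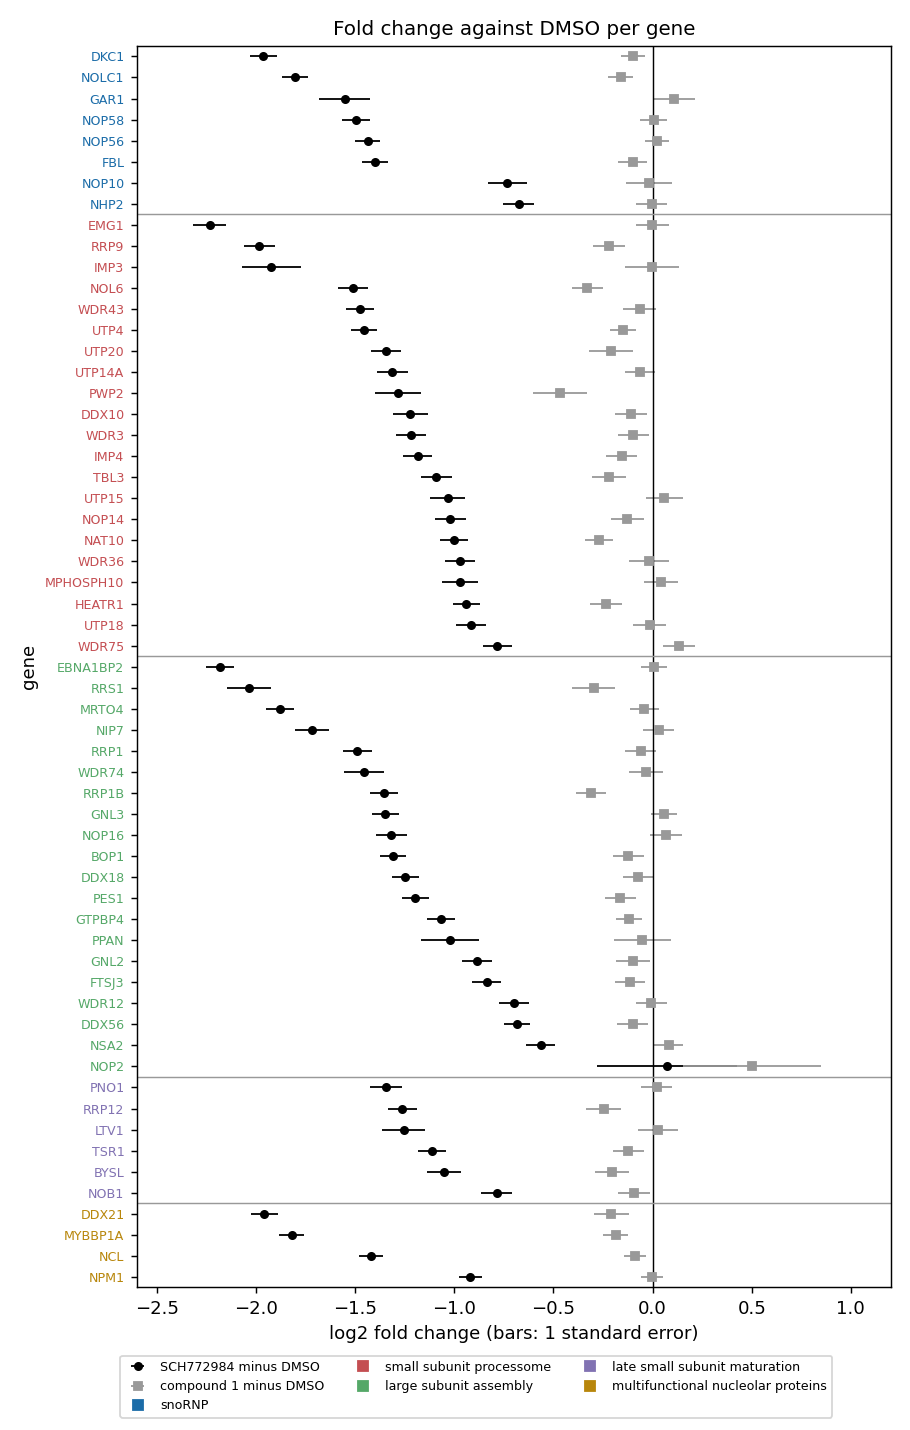
Log2 fold change against DMSO (x axis, bars 1 SE) of each of 59 ribosome biogenesis factors (y axis, grouped by step), with SCH772984 as black circles and compound 1 as grey squares. Circles lie between −2.23 and −0.56 except for NOP2 at 0.07, whereas squares lie between −0.47 and 0.13 except for NOP2 at 0.50, where the bars are wide.

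SCH772984 and compound 1 were also compared with each other, since both fold changes above share the DMSO libraries. Of 59 members, 58 were lower with SCH772984 than with compound 1 and 0 were higher, at a background of 32.6% lower and 33.7% higher of 13863 genes tested by edgeR. The median log2 fold change between the inhibitors was −1.11, and 37 members were at least 2-fold lower with SCH772984, as were 10.1% of tested genes. EMG1 again differed most, by −2.22 ± 0.10, with EBNA1BP2 at −2.18 ± 0.094. DDX56, at −0.58 ± 0.093, differed least among the 58. The value of NOP2 was −0.42 ± 0.32, with an adjusted p of 0.26 in edgeR's test. The step medians were −1.47 for snoRNP factors, −1.08 for the processome, −1.10 for large subunit assembly, −0.99 for late small subunit maturation and −1.47 for the multifunctional proteins.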

How the data were processed

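The authors deposited 1 table of raw read counts per gene, made from libraries built and sequenced by Novogene. The submitters' processing notes name HISAT2 2.0.5, featureCounts 1.5.0-p3 and hg38, and the strand setting is not given in the sources used here. All 58735 identifiers, names and coordinates matched GENCODE 29. Genes with paralogs, pseudogenes or shared exons can gain or lose counts in such counting.

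Each pair of groups was fitted separately in edgeR 4.0.16 (R 4.3.3), with TMM factors, filterByExpr (minimum count 10, minimum total count 15) and the robust quasi-likelihood test, and p-values were adjusted by Benjamini-Hochberg over all genes tested. A gene was called at an adjusted p under 0.05. All 59 members passed the filter. TPM used the deposited gene lengths, which equal the merged exon lengths. Errors are standard errors of the fit or SDs over 3 libraries, and they cover counting error as well as library spread. The members and lists were chosen with earlier results of these data known. All members could be named. Values per library are given, for each step, for the 2 highest in DMSO, the 2 largest falls and the smallest change with SCH772984, for members not called lower with SCH772984, and for the 5 smallest p-values with compound 1. Promoter windows came from RefSeq (GRCh38), and motifs were searched on both strands. The 51 members with a window had 59 windows, of which 33 began their transcript within 10 bases of a GENCODE 29 start.

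Alternatives were DESeq2 1.42.0, RLE factors, scaling to library size alone, the removal of the filter, a filter of 10 counts in each library, a joint fit of all 9 libraries, a replicate block, an unadjusted p, a 2-fold limit, and the omission of single libraries.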

Additional observations from a re-analysis of the deposited data

How the results depend on the processing

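With SCH772984 against DMSO, 58 members were lower under every alternative except a change of at least 2-fold, which left 44. The members' median moved to −1.09 with library size alone and to −1.18 with at least 10 counts in every library, and ran from −1.32 to −1.24 when 1 library was left out. Against compound 1 these medians were −0.97, −1.04 and −1.17 to −1.02, and 37 members were at least 2-fold lower. The log2 fold change of NOP2 with SCH772984 turned to −0.18 without DMSO replicate 1 and to −0.03 without SCH772984 replicate 2, in a range of −0.18 to 0.34 over the libraries left out. With compound 1 against DMSO, the number of members called lower was 0, with 0.374% of all genes tested. It was 4 without a filter (0.881% of genes), 2 with all 9 libraries in one fit (0.696%), 3 with DESeq2 (1.12%) and 14 at an unadjusted p (7.69%). Leaving out 1 library gave 0 to 14 members lower and 0 to 1 higher, with both upper values without compound 1 replicate 1, where 6.10% of genes were lower and 3.46% higher. The causes were not tested.

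Libraries with the same replicate number did not deviate together, with correlations of −0.10 to 0.16, so the numbers were not taken as pairs. With the replicate number as a block, 4 members were called lower with compound 1, beside 1.70% of genes, and 58 with SCH772984, beside 35.6%. At 11 to 31 counts per library, the depth for NOP2 was too low to follow changes smaller than its interval.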
